A study of Mus musculus with 4 samples.

Results

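A set of 10 genes known as targets of BCL6 in lymphocytes was followed through the BCL6 peak lists of mouse adipocyte nuclei. It comprised Ccnd2, Myc, Cdkn1a, Trp53, Bcl2, Gpr183, S1pr1, Cd69, Prdm1 and Bach2, 10 of the 21896 protein-coding genes of the RefSeq table used. Every peak whose nearest annotated promoter, as the authors named it, belonged to one of these genes was taken at any distance. This gave 11 of the 5741 deposited peaks, 5 of 1785 in inguinal and 6 of 3956 in perigonadal fat. The peaks belonged to 6 genes, and Cdkn1a, Trp53, S1pr1 and Cd69 had none.

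The nuclei came from C57BL/6 mice with the genotype Adipoq-Cre;Sun1-sfGFP-myc, in which Cre expressed from the adipocyte Adipoq promoter switches on a tagged nuclear membrane protein. All groups carried both alleles. Inguinal (subcutaneous) and perigonadal (visceral) fat was crosslinked, tagged nuclei were collected on beads against the myc tag, and BCL6-bound chromatin was precipitated with a custom polyclonal antibody raised in guinea pig. Each depot had 1 BCL6 library and 1 input library. The input libraries were not analysed here, and the age, treatment and pooling of animals are not given in the sources used here. With 1 library per depot no difference between depots could be tested. The cell type could not be checked by expression, since only peaks were measured.

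BCL6 is a BTB and zinc finger repressor that recruits corepressor complexes to DNA. In germinal centre B cells it holds back genes of the DNA damage checkpoint, cell cycle arrest, activation, exit from the follicle and plasma cell differentiation, and it is lost when cells leave the reaction. In T cells it directs the follicular helper fate. Its DNA motif resembles that of STAT proteins, with TTC and GAA at its ends.

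The deposited peak score is the authors' value and is scaled within its own list, so that levels were not compared between depots. Inguinal scores were whole multiples of 0.752 and perigonadal scores of 0.882, and each step was read as 1 sequenced tag. Library depth is unknown. The lowest inguinal peak had 9 tags and the lowest perigonadal peak 6, and the median peak had 12 and 10. The assigned peaks of the 10 genes lay close to these medians, with 11 to 14 tags in inguinal and 9 to 15 in perigonadal fat. Intervals given with tags are exact Poisson 95% intervals and cover counting error alone, as tags amplified by PCR may repeat a molecule.

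**Figure D1:**
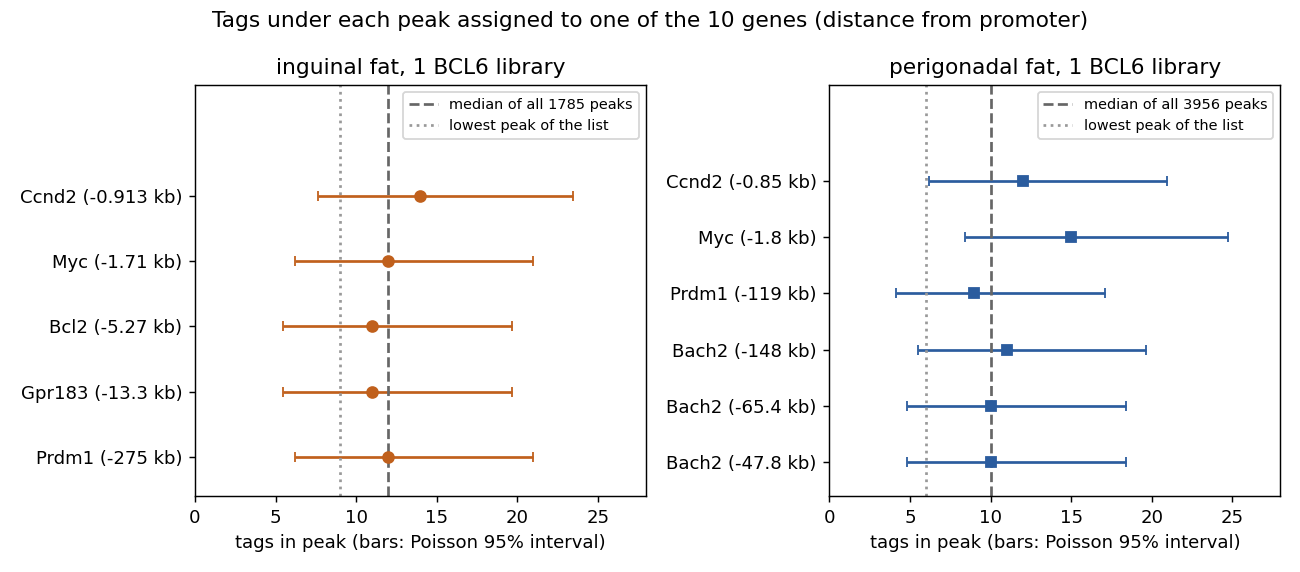
Tags under each of the 11 assigned peaks, in inguinal (left) and perigonadal (right) fat, with Poisson 95% intervals as bars and the distance from the promoter beside each name. The points lie between 9 and 15 tags, and every interval spans the median of its list (dashed, 12 and 10 tags).

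Distances were counted by the authors from the annotated transcript start. For 7 of the 11 peaks that start is the one in the RefSeq promoter table of GRCm38.p6, a build that matches mm10 in its chromosomes. The table held 7 promoter windows for 6 of the 10 genes, and Ccnd2, Myc, S1pr1 and Cd69 were not searched. The DNA under the peaks was not analysed here. The 3 windows below are shown because 6 of the peaks, those of Bcl2, Prdm1 and Bach2, are measured from their starts. Each runs from 250 bases before to 50 after the start, 5′ to 3′ on the strand of the gene, and capitals mark a match to TTCNNNGAA. They lie at chr1:106714241-106714540 (minus strand), chr10:44458699-44458998 (minus strand) and chr4:32417185-32417484 (plus strand).
Bcl2: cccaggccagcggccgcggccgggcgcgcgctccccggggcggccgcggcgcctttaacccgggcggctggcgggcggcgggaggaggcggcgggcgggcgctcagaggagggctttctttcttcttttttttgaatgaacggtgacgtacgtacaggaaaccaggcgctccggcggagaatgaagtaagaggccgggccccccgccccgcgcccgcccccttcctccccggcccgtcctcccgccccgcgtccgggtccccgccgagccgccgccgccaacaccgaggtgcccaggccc
Prdm1: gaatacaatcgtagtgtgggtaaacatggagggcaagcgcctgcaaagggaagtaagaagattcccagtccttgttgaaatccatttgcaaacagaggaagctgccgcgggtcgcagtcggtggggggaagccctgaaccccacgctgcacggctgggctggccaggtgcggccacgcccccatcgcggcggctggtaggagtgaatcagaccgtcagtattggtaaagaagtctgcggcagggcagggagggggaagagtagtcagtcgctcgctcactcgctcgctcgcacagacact
Bach2: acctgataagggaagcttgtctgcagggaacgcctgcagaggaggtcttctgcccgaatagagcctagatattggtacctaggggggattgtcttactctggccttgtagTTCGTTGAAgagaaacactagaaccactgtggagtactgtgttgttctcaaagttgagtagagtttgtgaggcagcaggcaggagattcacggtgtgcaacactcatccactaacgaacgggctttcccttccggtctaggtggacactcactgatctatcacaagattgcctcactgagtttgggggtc

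The motif TTCNNNGAA reads the same on both strands. Among the 7 windows only that of Bach2 held a match, TTCGTTGAA, which began 140 bases before the start (chr4:32417295-32417303). The fuller sequence TTCCTAGAA was searched on both strands, is a special case of the first, and was in none of the 7. Of all 32851 promoter windows 8.30% held TTCNNNGAA and 0.411% held TTCCTAGAA. Among windows that contained the centre of an inguinal peak the shares were 34.6% (18 of 52, Wilson 95% interval 23.2 to 48.2%) and 11.5% (6 of 52). For perigonadal peaks they were 25.3% (20 of 79, 17.0 to 35.9%) and 8.86% (7 of 79). None of the 7 windows of the listed genes contained a peak centre, and among these 6 genes the closest assigned peak was centred 5.27 kb from the start, at Bcl2. These matches are letters in a window and were not tested as sites.

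Inguinal peaks were assigned to 5 of the 10 genes (Ccnd2, Myc, Bcl2, Gpr183 and Prdm1), beside 6.15% of all protein-coding genes. Perigonadal peaks were assigned to 4 (Ccnd2, Myc, Prdm1 and Bach2), beside 12.3%. In either list 6 of the 10 had one, beside 15.4%. These shares were not adjusted for the distance between a gene and its neighbours. With peaks of any assignment the contrast was smaller. The median gap from the RefSeq span to the nearest inguinal peak was 251.8 kb for the 10 genes, beside 397.4 kb for protein-coding genes. For perigonadal peaks it was 81.52 kb, beside 164.1 kb. Both medians of the 10 lay within the quartiles of protein-coding genes (143.9 to 974.4 and 49.55 to 415.6 kb). Ccnd2 and Myc had a peak that overlapped between depots by at least 1 bp, beside 1.86% of genes. Of all peaks, 28.5% of inguinal and 12.8% of perigonadal ones were shared in this way. Within 50 kb of the promoter the counts were 4 inguinal and 3 perigonadal genes, beside 4.25% and 8.89%. With more than 12 tags only Ccnd2 in inguinal and Myc in perigonadal fat were left, beside 2.63% and 3.29%. The genes were picked with earlier results of these lists in view, so the counts describe them and carry no test.

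**Figure D2:**
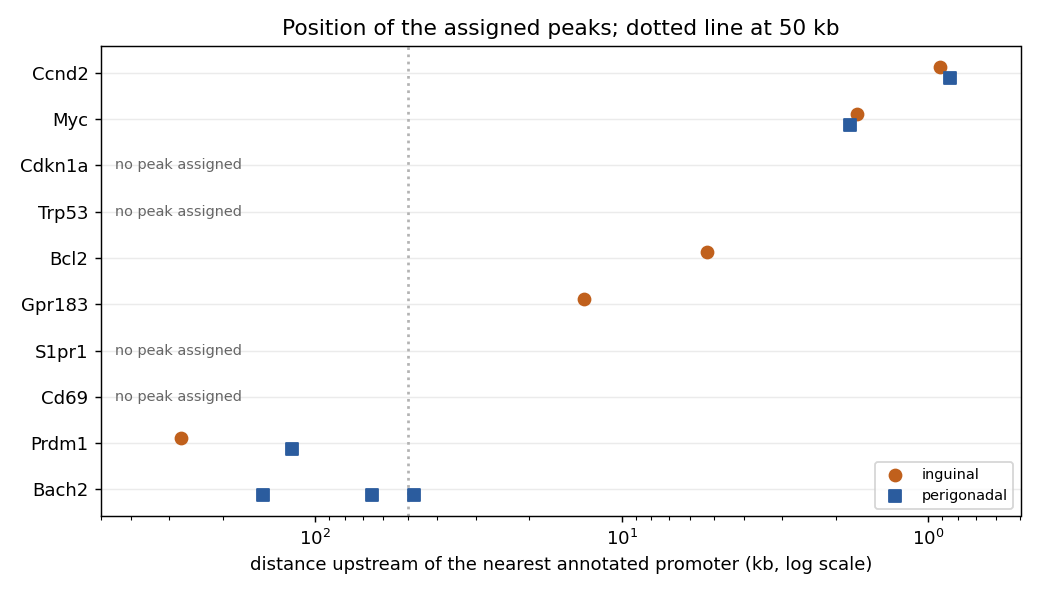
Distance of the assigned peaks upstream of the nearest annotated promoter, on a log scale in kb, for inguinal (circles) and perigonadal (squares) fat. Ccnd2 and Myc have a peak of each depot within 2 kb, Bcl2 and Gpr183 an inguinal one at 5.27 and 13.3 kb, and the peaks of Prdm1 and Bach2 lie between 47.8 and 274.7 kb.

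Among the genes of the cell cycle, Ccnd2 encodes cyclin D2, which partners CDK4 and CDK6 in G1 and is repressed by BCL6 in B cells. It was the only one of the 10 genes with a peak annotated as lying on its promoter. The inguinal peak at chr6:127151860-127152062 was centred 913 bp upstream of the start of NM_009829, with a score of 10.5 and 14 tags (7.65 to 23.5). The perigonadal peak at chr6:127151806-127151990 was centred 850 bp upstream, with a score of 10.6 and 12 tags (6.20 to 21.0). The peaks shared 130 bp, so the same stretch was marked in both depots. In the inguinal list 29.6% of peaks scored higher and in the perigonadal list 24.0%. Both centres fall inside the longer RefSeq span of Ccnd2 (chr6:127125162-127152188) and also inside the overlapping non-coding gene 9330179D12Rik. No other peak lay within 250 kb of Ccnd2 in either depot.

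Myc encodes a transcription factor of growth and proliferation, which BCL6 holds down in most germinal centre B cells. Its inguinal peak at chr15:61983527-61983729 was intergenic, 1.71 kb upstream of the start, with a score of 9.03 and 12 tags (6.20 to 21.0). The perigonadal peak at chr15:61983452-61983636 was centred 1.80 kb upstream, with a score of 13.2 and 15 tags (8.40 to 24.7). The 2 peaks had 109 bp in common. In the perigonadal list 15.2% of peaks scored higher, which made this the highest-ranked of the 6 assigned peaks there. In the inguinal list 41.3% scored higher.

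The neighbourhood of Myc held more peaks that the nearest-promoter rule gives to other genes. A shared peak in intron 4 of 8 of the non-coding gene Pvt1, 180.8 kb downstream of the Myc start, scored 9.78 in inguinal and 12.3 in perigonadal fat and is assigned to H2afy3. In the perigonadal list, a peak 231.3 kb upstream, in intron 2 of 4 of the non-coding gene D030024E09Rik, scored 45.0 with 51 tags (38.0 to 67.1) and had no inguinal partner. It ranked 35 of 3956. Within 250 kb of Myc there were thus 2 inguinal and 3 perigonadal peaks, while the mean over protein-coding genes was 0.513 and 1.14. These means, and the shares of genes with a closer peak given below, leave out genes on chromosomes without a peak in that list. They cover 21883 genes for inguinal and 21627 for perigonadal peaks.

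The arrest genes of the same group had no assigned peak. Cdkn1a encodes the CDK inhibitor p21, which BCL6 represses in B cells through its partner MIZ1. The nearest peak to Cdkn1a lay 298.7 kb from the gene in inguinal fat, with a score of 8.27, and is assigned to Fgd2. In perigonadal fat it lay 393.9 kb away in intron 2 of Mapk14, with a score of 8.82. Trp53 encodes the p53 checkpoint factor, a direct BCL6 target in germinal centre B cells. Its nearest inguinal peak lay 549.9 kb away. In perigonadal fat a peak 33.4 kb from Trp53, in intron 1 of Dnah2 at chr11:69546817-69547001, scored 12.3 with 14 tags and was not shared. Of protein-coding genes, 20.0% had a closer perigonadal peak than Trp53 and 73.8% a closer one than Cdkn1a.

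Bcl2 encodes the anti-apoptotic protein that BCL6 keeps low in normal germinal centre B cells. Its assigned peak was inguinal, 5.27 kb upstream of the promoter at chr1:106719463-106719665, with a score of 8.27 and 11 tags (5.49 to 19.7). The authors annotate the position as the transcript end of Kdsr, the neighbouring gene for an enzyme of sphingolipid synthesis. A taller inguinal peak, with a score of 13.5 and 18 tags (10.7 to 28.5), lay 8.71 kb beyond the other end of Bcl2 at chr1:106529368-106529570 and is assigned to Mir3473f. Neither was shared. In perigonadal fat the nearest peak to Bcl2 lay 161.5 kb away in Serpinb5 and scored 7.93. No peak of either depot fell within the 176.1 kb span of Bcl2.

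**Figure D3:**
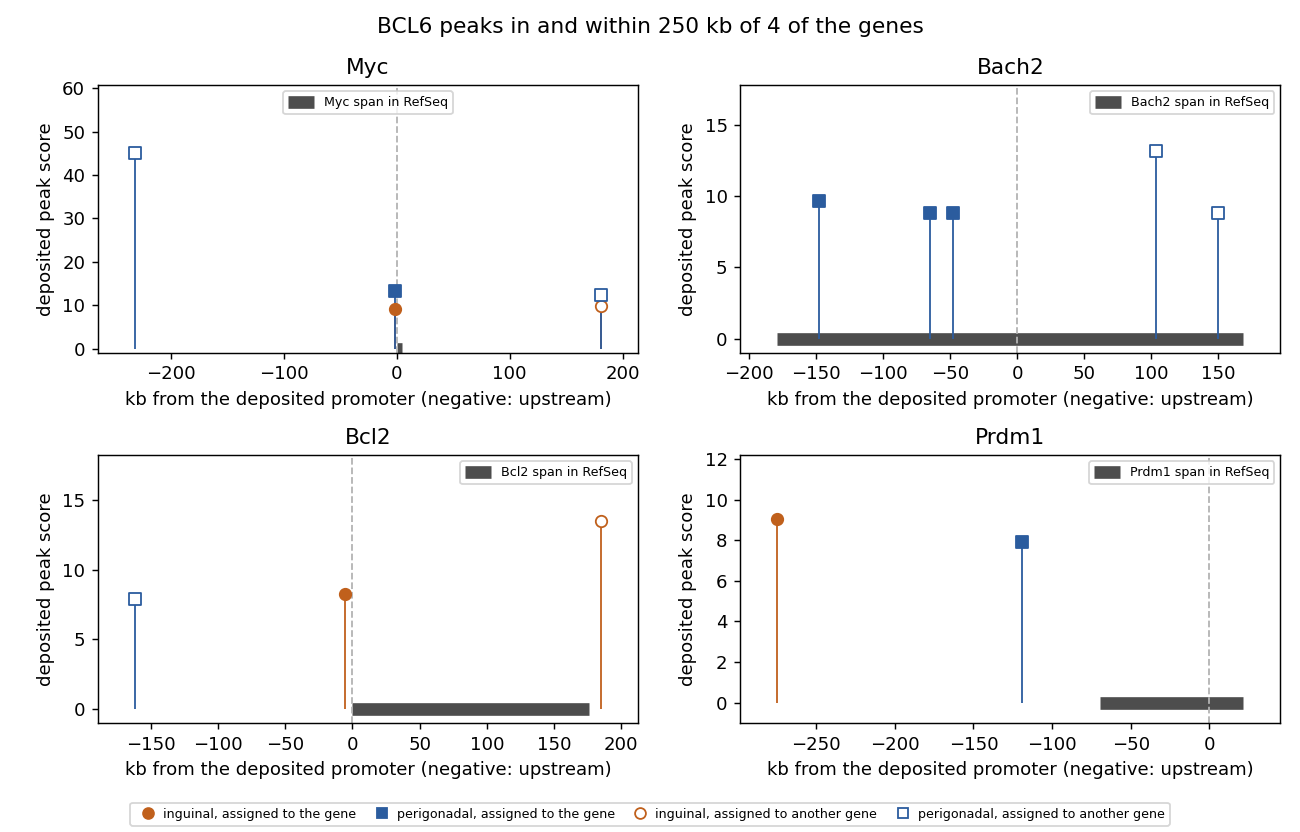
Deposited peak scores against distance in kb from the deposited promoter for Myc, Bach2, Bcl2 and Prdm1, with inguinal peaks as circles, perigonadal peaks as squares, peaks assigned to the gene filled, peaks assigned to others open, and the RefSeq span as a bar. At Myc the tallest peak, 45.0, lies 231.3 kb upstream in perigonadal fat, and all 5 peaks at Bach2 are perigonadal and lie inside its span.

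Gpr183, S1pr1 and Cd69 govern where lymphocytes sit. Gpr183 (EBI2) is the oxysterol receptor that draws B cells to the outer follicle, S1pr1 is the sphingosine phosphate receptor for exit from tissue, and Cd69 is an activation marker that pulls S1pr1 from the surface. BCL6 represses these genes in germinal centre cells. The Gpr183 peak was inguinal, 13.3 kb upstream at chr14:121978365-121978567, with a score of 8.27 and 11 tags (5.49 to 19.7). It lies in intron 5 of 8 of Ubac2, whose span also holds Gpr183 itself, and in a MYSERV6-int element, an endogenous retrovirus of the ERVK class. Of all inguinal peaks 21.1% lie in a repeat. In perigonadal fat the nearest peak to Gpr183 was 152.8 kb away, near Dock9, with a score of 7.93. The nearest inguinal peak to S1pr1 was 1202 kb away and the nearest perigonadal one, of 8.82, was 113.9 kb away. Cd69 was the most isolated of the 10 in perigonadal fat, with the nearest peak 991.7 kb away in Tead4, and 90.95% of protein-coding genes had a closer one. In inguinal fat the nearest peak to Cd69 was 1023 kb away.

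Prdm1 and Bach2 act on the plasma cell decision. Prdm1 encodes BLIMP-1, the driver of plasma cell fate and a classical target of BCL6 repression. Its inguinal peak at chr10:44733335-44733537 lay 274.7 kb upstream of the promoter, with a score of 9.03 and 12 tags (6.20 to 21.0), inside the non-coding gene 4930431F10Rik. Its perigonadal peak at chr10:44577603-44577787 lay 118.9 kb upstream, with a score of 7.93 and 9 tags (4.12 to 17.1), and 81.0% of that list scored higher. These peaks are 155.7 kb apart and so mark different places. The RefSeq span of Prdm1 reaches 69.8 kb upstream of the promoter used by the authors, and the perigonadal peak was 49.1 kb outside it. Neither peak is within 50 kb of the promoter.

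Bach2 encodes a BTB and bZIP repressor that acts with BCL6 on Prdm1 in B cells. It had no inguinal peak, and the nearest in that depot was 711.1 kb away. In perigonadal fat 3 peaks were assigned to it, 148.2, 65.4 and 47.8 kb upstream of the start of NM_001109661. Their scores were 9.70, 8.82 and 8.82, from 11, 10 and 10 tags. The authors call all of them intergenic, but the RefSeq span of Bach2 (chr4:32238413-32586109) starts 179.0 kb upstream of that promoter and takes in each one. The peaks at 65.4 and 47.8 kb lie in a MER119 DNA transposon and a PB1D10 SINE. Of all perigonadal peaks 24.0% lie in a repeat.

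The Bach2 span held 2 more perigonadal peaks that are assigned to the overlapping gene Bach2os. The taller, in intron 2 of 4 of NM_001109661 at chr4:32520781-32520965, scored 13.2 with 15 tags (8.40 to 24.7). The other scored 8.82 and lies in an L1MB8 LINE. With 5 peaks in 347.7 kb Bach2 had 14.4 perigonadal peaks per Mb, beside 2.11 over the spans of all protein-coding genes. At least 5 perigonadal peaks were found in 11 of the 21896 genes, and in 9 of the 443 genes at least as long as Bach2, whose median was 0. In the inguinal list 0 of these 443 genes had 5 peaks, and 75.9% had none. This count was made after the values of Bach2 were seen and was not tested. None of the 5 was shared, where 12.8% of all perigonadal peaks were, and 4 of them rested on 10 or 11 tags. A missing inguinal partner says only that no peak was called there.

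**Figure D4:**
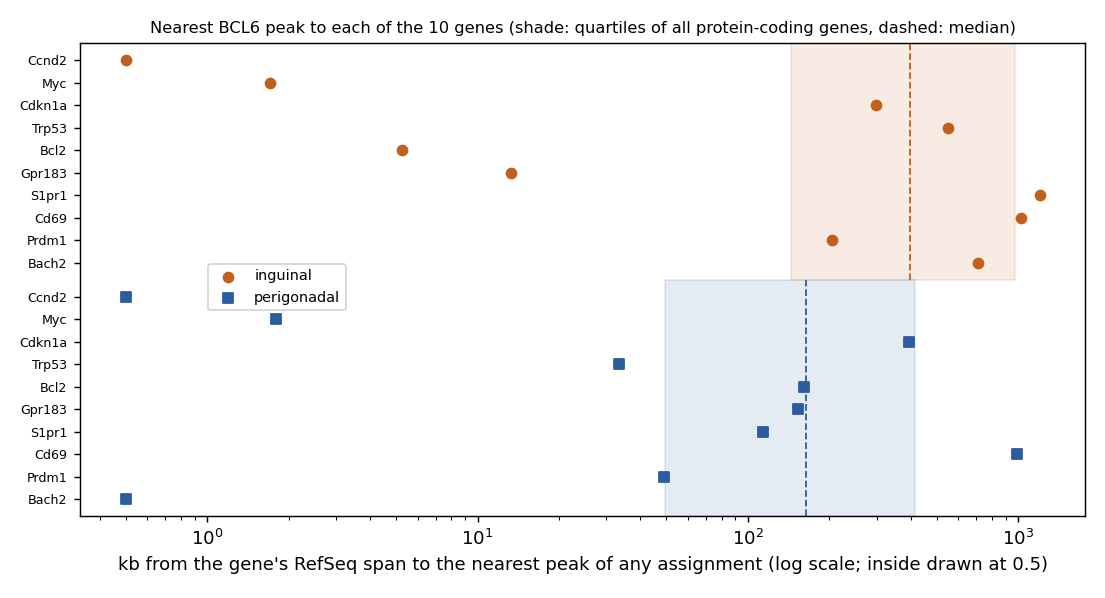
Gap in kb (log scale) from the RefSeq span of each gene to the nearest peak of any assignment in inguinal (circles, top) and perigonadal (squares, bottom) fat. Shading runs from the lower to the upper quartile of protein-coding genes on chromosomes with a peak in that list. The dashed line is their median, 397.4 and 164.1 kb, and peaks inside a gene (Ccnd2 in both depots, Bach2 in perigonadal fat) are drawn at 0.5 kb.

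A further list of 30 genes linked to BCL6 in B and T cells was set beside the 10. In inguinal fat 1 of 30 had an assigned peak at any distance, beside 6.15% of all protein-coding genes, and in perigonadal fat 6 of 30 did, beside 12.3%. Bcl2l11, which encodes the pro-apoptotic BCL2 antagonist BIM, had the tallest. Its shared site 113.2 kb downstream of the promoter scored 24.8 with 33 tags (22.7 to 46.3) in inguinal fat, at chr2:128240657-128240859, and 23.8 with 27 tags (17.8 to 39.3) in perigonadal fat. Both tag counts were above those of every peak assigned to the 10 genes. Irf4, a transcription factor of plasma cell differentiation, had perigonadal peaks of 10.6 and 9.70 at 33.6 kb upstream and 53.7 kb downstream. Ccl3, a chemokine gene repressed by BCL6 in B cells, had a perigonadal peak of 8.82 at 13.4 kb. Gata3, Notch2 and Nfkb1 had perigonadal peaks of 7.93 between 64.6 and 263.9 kb downstream of the promoter. Those of Notch2 and Nfkb1 lay within the gene, in intron 4 of 33 and intron 20 of 24, and that of Gata3 was intergenic. The Notch2 peak lay in an L1MB8 LINE, the Gata3 peak in a B3 SINE and the Irf4 peak at 53.7 kb in an L1MEb LINE. Apart from the Bcl2l11 site, none of these perigonadal peaks was shared. The other 24 genes, among them Atr and Chek1 of the DNA damage response and Klf2, Selplg and Il7r of T cells, had no assigned peak in either list. Within 50 kb the list had 0 of 30 inguinal and 2 of 30 perigonadal genes, beside 4.25% and 8.89%.

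Of 9 lymphocyte marker genes, such as Cd3e and Ptprc, 0 had an assigned peak in either depot. Of 10 adipocyte marker genes, 2 had one in each, and 0 had a shared peak or a peak of more than 12 tags. The share over all protein-coding genes was 6.15% for inguinal and 12.3% for perigonadal peaks, and 1.86% for a shared peak. With more than 12 tags it was 2.63% for inguinal and 3.29% for perigonadal peaks. The difference between these short lists was not tested. Cidec, a lipid droplet protein gene, had an inguinal peak of 9.03 in intron 1. Slc2a4, the insulin-responsive glucose transporter gene, had a perigonadal one of 8.82 in a B3 SINE. Lep, the leptin gene, had an inguinal peak of 7.52 on its promoter and a perigonadal one of 8.82 that lay 10.4 kb downstream. A peak list does not measure how many lymphocyte nuclei entered the preparation, and the part of such nuclei in these results was not tested.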

How the data were processed

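BCL6 chromatin immunoprecipitation was sequenced from inguinal and perigonadal adipocyte nuclei, with 1 library per depot. The fat was fixed with disuccinimidyl glutarate for 30 minutes and 1% formaldehyde for 10 minutes, per the labels' protocols. The tools were Bowtie 1.2 and HOMER with the mm10 build, per the submitters' processing notes. The deposited lists are HOMER annotations of mm10 peaks, per the file headers. The inguinal header names a false discovery rate of 0.001 and the perigonadal header none, so calling limits may differ. The deposited peak score is the authors' value, and so is the deposited focus ratio, a fraction for the placement of tags about the centre of a peak. The distance to the nearest promoter is given in bp by the authors.

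Peaks were matched to the 10 genes by the deposited gene name, and genes with a peak were counted by the deposited Entrez number. Tags were read from the score step, on which 100% of scores lay within 0.051 (scores of 10 or more) or 0.0051 (lower scores). Of the peaks, 99.7% of inguinal and 99.95% of perigonadal Entrez numbers matched the RefSeq table of GRCm38.p6. Overlap was at least 1 bp. Python 3.11.15, pandas 2.3.3, NumPy 2.4.6 and SciPy 1.17.1 were used, and the code was tested on simulated peaks. Coordinates are as deposited or, for genes and promoters, as in RefSeq.

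The genes and lists were chosen with earlier results of these data known. All 10 genes are named, with the 6 genes of the further list that had the tallest peaks, the genes that hold nearby peaks, and for each shared peak of the 10 the 2 genes with the closest scores and any tied with them. Further names were picked with their values known. One item of the marker lists is not reported here. Alternatives covered distance, tags, overlap, list length and assignment.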

Additional observations from a re-analysis of the deposited data

How the results depend on the processing

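The counts of genes with an inguinal, a perigonadal and a shared peak (5, 4 and 2) stayed within 1.5 times under 6 of 10 alternative settings. These were a 50 kb limit on the distance from the promoter or, added after the data were seen, from the RefSeq span, matching by Entrez number, a perigonadal list held to the inguinal length (which bears on the perigonadal and shared counts) and 2 other overlap rules (which bear on the shared count). Matching by Entrez number gave the same genes and could hardly do otherwise, as genes with a peak were already counted by those numbers. The limit from the span added Trp53 in perigonadal fat and dropped Prdm1 in inguinal fat. Holding the perigonadal list to the inguinal length dropped Prdm1 in perigonadal fat. No share over all protein-coding genes was counted for either of these settings. Within 10 kb the counts were 3, 2 and 2, beside 1.81%, 3.98% and 0.557% of all protein-coding genes. With more than 12 tags 1, 1 and 0 genes were left, beside 2.63%, 3.29% and 1.38%. By the gene named in the authors' annotation of the position, the counts were 1, 2 and 1, beside 3.88%, 8.04% and 1.08%. By position inside the RefSeq span, an alternative added after the data were seen, they were also 1, 2 and 1, with Ccnd2 in both depots and Bach2 in perigonadal fat, beside 4.11%, 8.20% and 1.23%. Over all protein-coding genes the share with an inguinal peak moved from 6.15% to 4.25% within 50 kb and to 2.63% with more than 12 tags, and the perigonadal share from 12.3% to 8.89% and 3.29%. Limits on distance and tags leave fewer peaks by construction. In the authors' annotation the peaks assigned to Myc and Prdm1 are intergenic, that of Bcl2 names Kdsr and that of Gpr183 names Ubac2. All of these peaks lie outside the RefSeq span of the gene they are assigned to. By annotation Bach2 counts only through the intron 2 peak that is assigned to Bach2os. For the remaining alternatives the cause was not tested. No paired analysis was possible because each depot had a single library. Library depth is unknown, and the assigned peaks rest on 9 to 15 tags.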

Other observations

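All 11 peaks assigned to the 10 genes lay upstream of the promoter, at 9 separate sites. Over the whole lists 40.8% of inguinal peaks (Wilson 95% interval 38.5 to 43.1%) and 42.1% of perigonadal peaks (40.5 to 43.6%) were upstream. The pattern was noticed after the values were seen and was not tested, and 3 of the 11 belong to Bach2. The RefSeq span reaches farther upstream than the deposited start at Bach2, Prdm1 and Ccnd2, by 179.0, 69.8 and 1.14 kb. The RefSeq promoter table gives only the deposited start for Bach2 and Prdm1 and has no entry for Ccnd2. The assigned peaks of Bach2 and Ccnd2 lie inside these spans and so downstream of the upstream edge of the span, and those of Prdm1 lie outside.

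The focus ratio was 0.739 in inguinal and 0.722 in perigonadal fat at Ccnd2, 0.75 and 0.739 at Myc, and in inguinal fat 0.733 at Bcl2 and 0.706 at Gpr183. The list medians were 0.812 and 0.833. At these 4 genes between 10.5% and 22.1% of peaks with the same number of tags had a lower ratio. The peaks of Prdm1 had ratios of 0.867 and 0.833, and those of Bach2, from the farthest to the nearest, 0.8, 0.846 and 0.917. For the Bach2 peak at 47.8 kb, 88.7% of peaks with as many tags had a lower ratio. The genes were put side by side in this way after their values were seen, and the difference was not tested.

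The shared site at Ccnd2 was a low one of the 508 shared sites, with 76.4% of them higher in inguinal and 81.5% in perigonadal fat. For Myc the shares were 85.8% and 67.7%. The closest pairs of scores to Ccnd2 were those of Mpdz (10.5 and 10.6) and, tied, Dsp and Slc16a10 (9.78 and 10.6 each), and to Myc those of Flrt3 (9.03 and 13.2) and Igfals (9.03 and 14.1). The likeness rests on 2 values per site, 1 per depot, and other pairs were nearly as close.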
